A study of Mus musculus with 15 samples.

Results

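The 46 genes described here encode MYC, its partner MAX and 44 factors that make ribosomes: subunits of RNA polymerase I, proteins of the small nucleolar ribonucleoproteins (snoRNPs), nucleolar chaperones, and factors that process the small and the large ribosomal subunit. They were chosen by symbol from the 21025 gene entries of each count file, which write symbols in capitals (MYC, NCL, FBL, DKC1 and RRP1B, here Myc, Ncl, Fbl, Dkc1 and Rrp1b), and all 46 were found. All 46 also passed the filter on low counts, which left 11979 genes to test, and the lowest count of a member in any library was 110 reads. The choice used no measured value of these files as a threshold, although the genes were proposed with earlier results of the same data known.

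MYC is a transcription factor that pairs with MAX and binds the DNA element CACGTG, called an E-box. It is known as a driver of cell growth in activated T cells, where it raises the production of ribosomes. In the nucleolus RNA polymerase I transcribes the precursor of the ribosomal RNAs, box C/D and box H/ACA snoRNPs methylate and pseudouridylate it, and large sets of assembly factors cut, fold and package it into the subunits. STAT5A, the protein that the mouse lines were made to express, acts downstream of cytokine receptors such as those for interleukin-2 and interleukin-7, which T cells use for growth and survival.

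Polyadenylated RNA was sequenced from lymph node cells that had been enriched for CD8 with magnetic beads (positive selection), taken from untreated mice at an age of 15 weeks. There were 5 libraries for each of 3 genotypes: WT, which was C57BL/6N, cS5Alo and cS5Ahi. The cS5A lines are known as transgenic mice with a constitutively active STAT5A at a low and a high level; the labels give only the names of the lines, and no source used here names the promoter of the transgene. For each WT library the nodes of 2 to 3 mice were pooled, and the labels do not say whether a cS5Alo or cS5Ahi library came from 1 mouse, so p-values reflect only how these libraries spread. In the text, WT 1 to 5, cS5Alo 1 to 5 and cS5Ahi 1 to 5 are single libraries.

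Libraries held 12177642 to 33948416 reads in genes. Levels are written in CPM, the common unit for the share of a library's reads that fell on a gene, here with library sizes scaled by TMM factors; a CPM depends on the length of the transcript and was compared between libraries, not between genes. Stat5a averaged 488 ± 90.7 CPM in cS5Ahi against 108 ± 7.66 CPM in cS5Alo and 82.8 ± 10.2 CPM in WT (SD, n = 5), without overlap between the groups, which fits the order of the genotype labels. The description of cS5Ahi 1 names cS5Alo, while its title and genotype name cS5Ahi, and it was kept as cS5Ahi. All cS5Ahi libraries were run on 1 flow cell and all others on another, so flow cell and genotype cannot be told apart for cS5Ahi. The sums of marker genes that follow used library size without TMM factors. The summed CPM of 8 CD8 T cell markers ranged over 8411 to 10249 for cS5Ahi, 8415 to 9324 for cS5Alo and 8241 to 10402 for WT. RNA of other cells was also present: 14 B cell markers summed to 119 to 188 CPM for cS5Ahi, 222 to 333 CPM for cS5Alo and 137 to 422 CPM for WT, and none was at 0 throughout. Salivary gland transcripts (17 listed, of which Smr2 was at 0) summed to 47.2 to 928 CPM, 76.9 to 4544 CPM and 660 to 6301 CPM in the same order. The sum of natural killer markers (4 listed) ran the other way, at 185 to 222, 72.4 to 90.7 and 43.8 to 75.0 CPM. Of these 4, 1 had a fold change below 1 in cS5Ahi against WT. Which cells the RNA of the natural killer markers came from was not tested. Reads outside genes made up 39.8% in WT 3, 40.8% in WT 4 and 36.8% in cS5Ahi 4, and 23.0 to 30.2% in the other 12 libraries.

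Because MYC with MAX binds the E-box, the RefSeq promoters of the members (build GRCm38.p6, 250 bases before to 50 bases after the start of the gene) were searched for CACGTG, a palindrome that reads the same on both strands. A promoter was listed for 40 of the 46 members; Myc, Npm1, Fbl, Bop1, Rrp12 and Rrs1 had no entry. The element was found in 9 of the 40 (22.5%, exact 95% interval 10.8 to 38.5%), against 1123 of 9530 tested genes with a promoter (11.8%) and 2187 of all 27025 gene symbols with a promoter (8.09%). Each gene was counted once, if any promoter listed for it held the element. Most of these elements lay just after the start: with only the 250 bases before it, 2 of 40 members held one (5.0%), against 9.95% of tested genes. The 9 stretches are printed 5′ to 3′ on the strand of the gene with the E-box in capitals, to show where it sits beside members that did and did not change; they were chosen after the values had been seen, and 3 of them end at the edge of the searched window.
Mybbp1a: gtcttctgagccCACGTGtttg
Pes1: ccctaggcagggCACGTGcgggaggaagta
Wdr43: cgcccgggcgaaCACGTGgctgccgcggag
Nop2: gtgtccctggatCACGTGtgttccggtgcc
Tsr1: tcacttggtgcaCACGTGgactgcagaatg
Utp20: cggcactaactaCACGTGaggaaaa
Grwd1: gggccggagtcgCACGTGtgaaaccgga
Max: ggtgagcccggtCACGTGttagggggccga
Imp4: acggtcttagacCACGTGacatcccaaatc
Those of Mybbp1a and Pes1, which rose in cS5Ahi as described below, are at chr11:72441355-72441376 and chr11:3963965-3963994, both on the plus strand, with the element at bases 41 to 46 and 3 to 8 after the start. In Nop2 (chr6:125131811-125131840, plus strand) it ended 55 bases before the start, in Imp4 (chr1:34439696-34439725, plus strand) 116 bases before it, and in Max (chr12:76962234-76962263, minus strand) it spanned the start. Of members called higher in cS5Ahi against WT (11 genes, defined with the counts that follow), 2 of 9 with a promoter held the element (22.2%), and of those not called 7 of 31 (22.6%). A match is a string of letters, and binding was not measured here.

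The members as a group were higher in cS5Ahi than in WT, by a small margin. The mean log2 CPM over the 46 genes was 5.83, 6.00, 5.83, 5.92 and 5.80 (WT 1 to 5), 5.96, 5.93, 5.93, 5.98 and 5.94 (cS5Alo 1 to 5), and 6.25, 6.06, 6.15, 6.08 and 6.18 (cS5Ahi 1 to 5). All 5 cS5Ahi libraries lay above all 10 others, while cS5Alo fell inside the range of WT, whose highest library was WT 2. Group means were 6.14 ± 0.08 for cS5Ahi, 5.95 ± 0.02 for cS5Alo and 5.88 ± 0.08 for WT (SD, n = 5), a difference of 0.27 on the log2 scale between cS5Ahi and WT, 0.19 between cS5Ahi and cS5Alo, and 0.07 between cS5Alo and WT. With library size in place of TMM factors the first of these was 0.18. As a summed share of the reads in genes the groups overlapped, at 0.508 to 0.598% in cS5Ahi, 0.415 to 0.524% in cS5Alo and 0.393 to 0.514% in WT. No test is given for this mean, because the genes were chosen with results of these data in view.

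**Figure D1:**
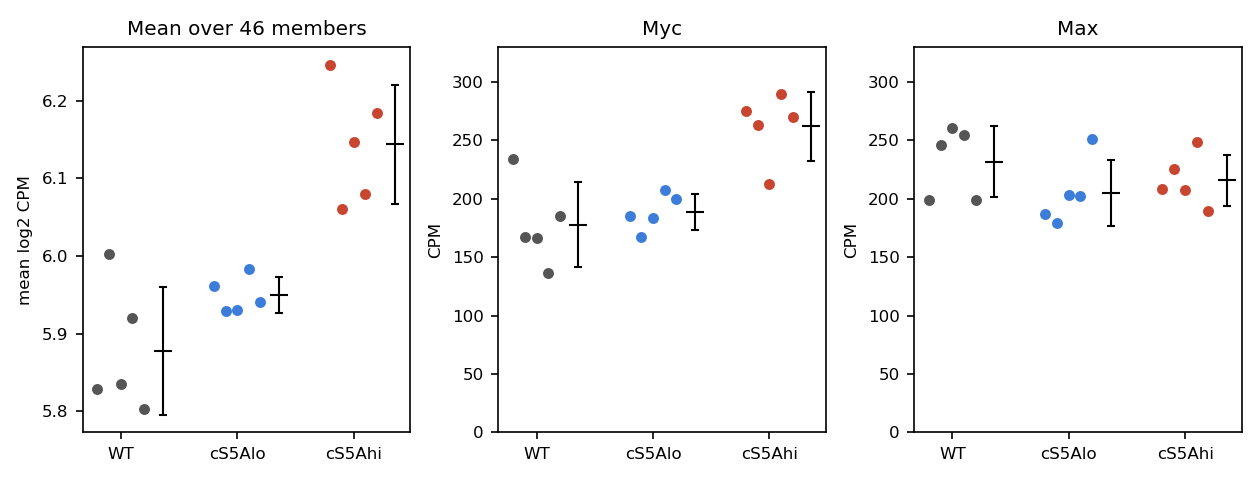
Mean log2 CPM over the 46 members (left; the axis does not start at 0) and CPM of Myc (middle) and Max (right) in each library, by genotype; points are libraries and the bar beside them is the mean ± SD of 5. The cS5Ahi libraries lie above all others for the mean, Myc is higher in cS5Ahi with cS5Ahi 3 (213 CPM) inside the range of WT, and Max overlaps between all genotypes.

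In cS5Ahi against WT, 11 of the 46 members rose and none fell (edgeR quasi-likelihood test, Benjamini-Hochberg adjusted p under 0.05 over all tested genes, here "called"). That is 23.9% of the members, against 6.88% of tested genes called higher and 7.25% called lower. The fold change was above 1 for 40 members and below it for 6, against 50.1% of tested genes above it, and the median log2 fold change was 0.25 over the members and 3e-04 over all tested genes. The changes were small: called members rose 1.21-fold to 1.66-fold, 2 members reached 1.5-fold and none reached 2-fold. The libraries did not overlap for 6 members, all higher in cS5Ahi (Rrp1b, Fbl, Mybbp1a, Nat10, Dkc1 and Pes1), and 5.98% of tested genes did the same (4.47% in the other direction). An unadjusted p under 0.05 was found for 18 members (26.6% of tested genes).

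Several measured properties of the libraries moved with this result. B cell markers had a mean log2 CPM of 1.43 to 3.00 in cS5Ahi and 2.58 to 4.57 in WT, and 10 of these 14 markers were called lower in cS5Ahi. In WT 1 to 5 the B cell value was 4.47, 2.58, 4.29, 4.57 and 3.83. WT 2, with the highest mean over the members in WT, had the lowest of these, and WT 5, with the lowest mean, the next lowest. Stroma and endothelium markers had a mean log2 CPM of 1.10 to 1.83 in cS5Ahi and 2.79 to 3.56 in WT, and 2 of the 4 tested (of 7 listed) were called lower. Natural killer markers had 3.40 to 4.03 in cS5Ahi and 0.91 to 2.81 in WT. Of the 4 markers 3 were called higher, and the other had a log2 fold change of −1.85 and was not called. With the B cell value as a covariate no member was called with edgeR, 5 had an unadjusted p under 0.05, the lowest adjusted p was 0.107 for Rrp1b, 34 of 46 fold changes were above 1 and the median log2 fold change was 0.12; 3.17% of all tested genes were then called. With the salivary gland value as a covariate 1 member was called (Rrp1b). Without WT 3 and WT 4, 2 members were called (Rrp1b and Dkc1), and without these and cS5Ahi 4 there were 3. Leaving out single libraries gave 7 called members without WT 1, WT 3 or cS5Ahi 5, 6 without WT 4 and 5 without cS5Ahi 1. The part of other cells in the result was not tested, and in bulk RNA fewer cells of a type and less RNA per cell cannot be told apart.

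In cS5Alo against WT no member was called with edgeR, nor with DESeq2 or limma, and 0% of tested genes were called with edgeR. An unadjusted p under 0.05 was found for 3 members (Mrto4, Fbl and Gnl3) with edgeR, for 3 with DESeq2 and for 4 with limma, against 11.3% of all tested genes with edgeR; DESeq2 called 89 genes, none of them a member. The median log2 fold change over the members was 0.06, with 30 above 0 and 16 below (49.9% of tested genes above). Mrto4 did not overlap between the groups and was higher in cS5Alo, as were 0.993% of tested genes. With only the libraries of the lane that cS5Alo shared with WT 3, 4 and 5, no member was called either. Y-linked genes had a mean log2 CPM of −2.90 to −0.78 in cS5Alo and of 5.46, −2.40, −2.94, 3.84 and 4.73 in WT 1 to 5. With the Y-linked value as a covariate no member was called, and the part of this difference in the result was not tested.

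In cS5Ahi against cS5Alo, 7 members rose and none fell (Rrp1b, Dkc1, Ddx21, Bysl, Myc, Nat10 and Mybbp1a), against 8.64% of tested genes called (4.87% higher and 3.77% lower). The fold change was above 1 for 39 members (49.2% of tested genes) and the median log2 fold change was 0.21. Libraries did not overlap for 10 members that were higher in cS5Ahi (5.85% of tested genes) and for 1 that was lower, Nip7 (4.9%). With the B cell value as a covariate no member was called and 5 had an unadjusted p under 0.05. The count was 3 without cS5Alo 3 or cS5Ahi 5, 4 without cS5Alo 4 and 2 without cS5Ahi 1. Y-linked genes had a mean log2 CPM of −2.90 to −0.78 in the 5 cS5Alo libraries, and 2 of the 5 cS5Ahi libraries (cS5Ahi 4 and 5) were as low. With the Y-linked value as a covariate 3 members were called (Rrp1b, Dkc1 and Ddx21), and the part of this difference in the result was not tested. This comparison shares its cS5Ahi libraries with the one against WT; 6 members were called in both, 5 only against WT (Fbl, Ddx10, Nhp2, Pes1 and Mrto4) and 1 only against cS5Alo (Bysl). The group means rose in the order WT, cS5Alo, cS5Ahi for 26 members (56.5%, against 23.8% of tested genes) and fell in that order for 1, Grwd1 (19.9%).

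**Figure D2:**
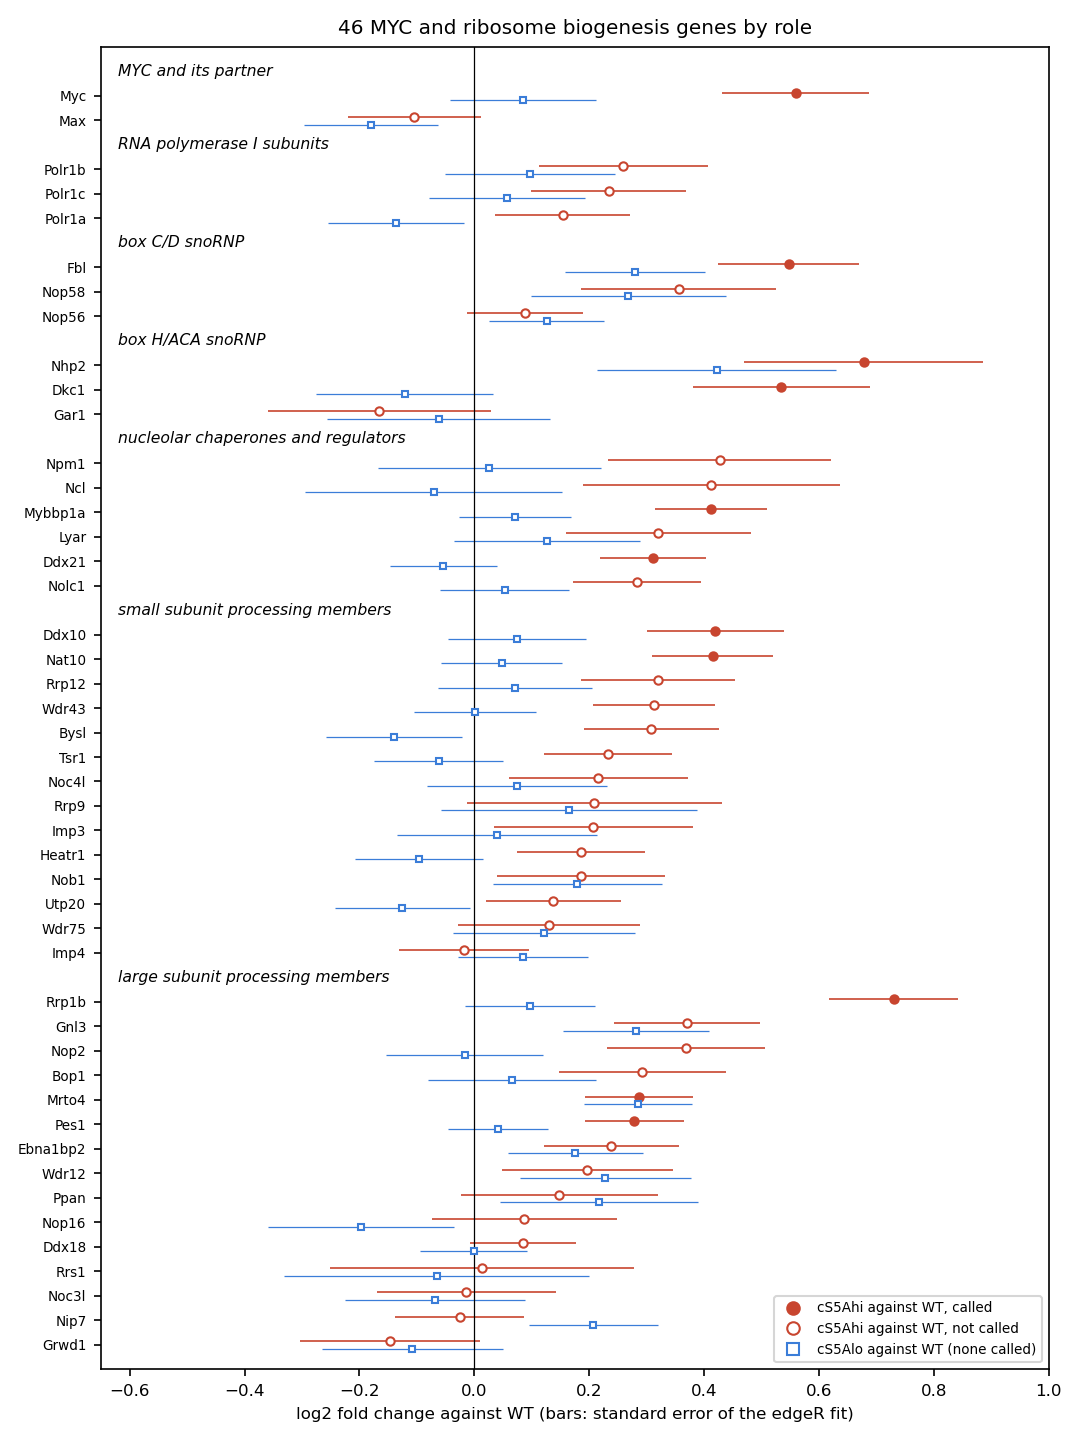
Log2 fold change of each member against WT with the standard error of the edgeR fit, grouped by role: red circles cS5Ahi (filled where called), blue squares cS5Alo. The 11 filled circles are spread over the roles other than RNA polymerase I, and 40 of 46 red circles lie right of 0, against 30 of 46 blue squares.

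Myc itself was measured at 234, 167, 167, 136 and 185 CPM (WT 1 to 5), 186, 167, 183, 208 and 200 CPM (cS5Alo 1 to 5) and 275, 263, 213, 290 and 270 CPM (cS5Ahi 1 to 5). The cS5Ahi libraries were above all cS5Alo libraries, and against WT they overlapped only through WT 1 and cS5Ahi 3. The log2 fold change was 0.56 ± 0.13 (SE) in cS5Ahi against WT (adjusted p = 0.00502, edgeR) and 0.47 ± 0.13 against cS5Alo (adjusted p = 0.0231, edgeR), while cS5Alo against WT gave 0.08 ± 0.13 (adjusted p = 0.833, edgeR). Two-sided exact permutation tests over the libraries gave adjusted p = 0.0476 for both cS5Ahi comparisons (6 tests, Myc and Max over 3 pairs), and 0.0714 for both when library size replaced the TMM factors. The edgeR call of Myc against WT was lost in 4 of 25 other settings, none of them the loss of 1 library. It was lost without WT 3 and WT 4 (adjusted p = 0.0600, edgeR) and without these and cS5Ahi 4. It was also lost with the B cell value (log2 fold change 0.51, adjusted p = 0.302, edgeR) or the salivary gland value as a covariate. The call against cS5Alo was lost in 10 of 25 other settings, 6 of them the loss of 1 library (cS5Alo 1, 2 or 3, or cS5Ahi 1, 4 or 5).

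Max, the partner without which MYC does not bind DNA, was measured at 199, 246, 261, 255 and 199 CPM (WT 1 to 5), 187, 179, 203, 203 and 251.6 CPM (cS5Alo 1 to 5) and 208, 225, 207, 248.5 and 190 CPM (cS5Ahi 1 to 5). The 3 groups overlapped over nearly their whole range. The log2 fold change in cS5Ahi against WT was −0.10 ± 0.12 (adjusted p = 0.633, edgeR).

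The 3 listed subunits of RNA polymerase I are Polr1a, which holds the catalytic site, Polr1b, the second largest subunit, and Polr1c, which is shared with RNA polymerase III. None was called in any comparison, and their log2 fold changes in cS5Ahi against WT were 0.15 ± 0.12, 0.26 ± 0.15 and 0.23 ± 0.13. Polr1b ranged from 19.1 to 33.4 CPM in WT and from 22.5 to 36.0 CPM in cS5Ahi, where cS5Ahi 4 was lowest for all 3 subunits.

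Of the box C/D snoRNP proteins, Fbl, the methyltransferase fibrillarin, rose and its partners Nop56 and Nop58 did not pass the test. Fbl was at 137, 149, 115, 111 and 151 CPM (WT 1 to 5), 168, 152, 154, 195 and 137 CPM (cS5Alo 1 to 5) and 203, 163, 207, 176 and 221 CPM (cS5Ahi 1 to 5). All cS5Ahi libraries exceeded all WT libraries, and cS5Alo overlapped with both. Its log2 fold change was 0.55 ± 0.12 in cS5Ahi against WT (adjusted p = 0.00433, edgeR), 0.28 ± 0.12 in cS5Alo against WT (adjusted p = 0.401, edgeR) and 0.27 ± 0.12 in cS5Ahi against cS5Alo (adjusted p = 0.209, edgeR). The call of Fbl was lost in 5 of 25 other settings, none of them the loss of 1 library. Nop56 had a log2 fold change of 0.09 ± 0.10 and Nop58 of 0.36 ± 0.17 in cS5Ahi against WT. Nop58 was at 64.0 and 64.4 CPM in WT 1 and WT 5 but at 111 to 126 CPM in the other WT libraries, within the 110 to 141 CPM of cS5Ahi.

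Of the box H/ACA proteins, Dkc1, the pseudouridine synthase dyskerin, and Nhp2, a core protein beside it, rose, and Gar1, another core protein, did not. Dkc1 was at 45.3, 63.7, 66.4, 70.9 and 36.6 CPM (WT 1 to 5), 52.0, 43.9, 47.0, 55.4 and 61.7 CPM (cS5Alo 1 to 5) and 91.5, 78.5, 85.7, 73.6 and 80.1 CPM (cS5Ahi 1 to 5). The lowest cS5Ahi library stood above the highest of both other groups. This gave a log2 fold change of 0.53 ± 0.15 against WT (adjusted p = 0.0246, edgeR) and 0.66 ± 0.15 against cS5Alo (adjusted p = 0.0101, edgeR). The call against WT was lost in 8 of 25 other settings, 2 of them the loss of 1 library (WT 1 or cS5Ahi 1). That against cS5Alo was lost in 1, with the B cell value as a covariate. Nhp2 was at 81.8, 47.3, 41.1, 49.5 and 87.9 CPM (WT 1 to 5), 95.02, 91.6, 82.5, 91.9 and 51.2 CPM (cS5Alo 1 to 5) and 96.9, 82.8, 127, 87.2 and 98.9 CPM (cS5Ahi 1 to 5). WT 2, 3 and 4 and cS5Alo 5 were low and the other libraries of these 2 groups reached or came near the range of cS5Ahi. Its log2 fold change against WT was 0.68 ± 0.21 (adjusted p = 0.0353, edgeR). The call of Nhp2 was lost in 12 of 25 other settings, 6 of them the loss of 1 library (WT 2, WT 3, WT 4, cS5Ahi 1, cS5Ahi 3 or cS5Ahi 5). In those 6 the log2 fold changes were 0.55 (without WT 3) to 0.69 (without cS5Ahi 1). Gar1 had a log2 fold change of −0.17 ± 0.19.

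**Figure D3:**
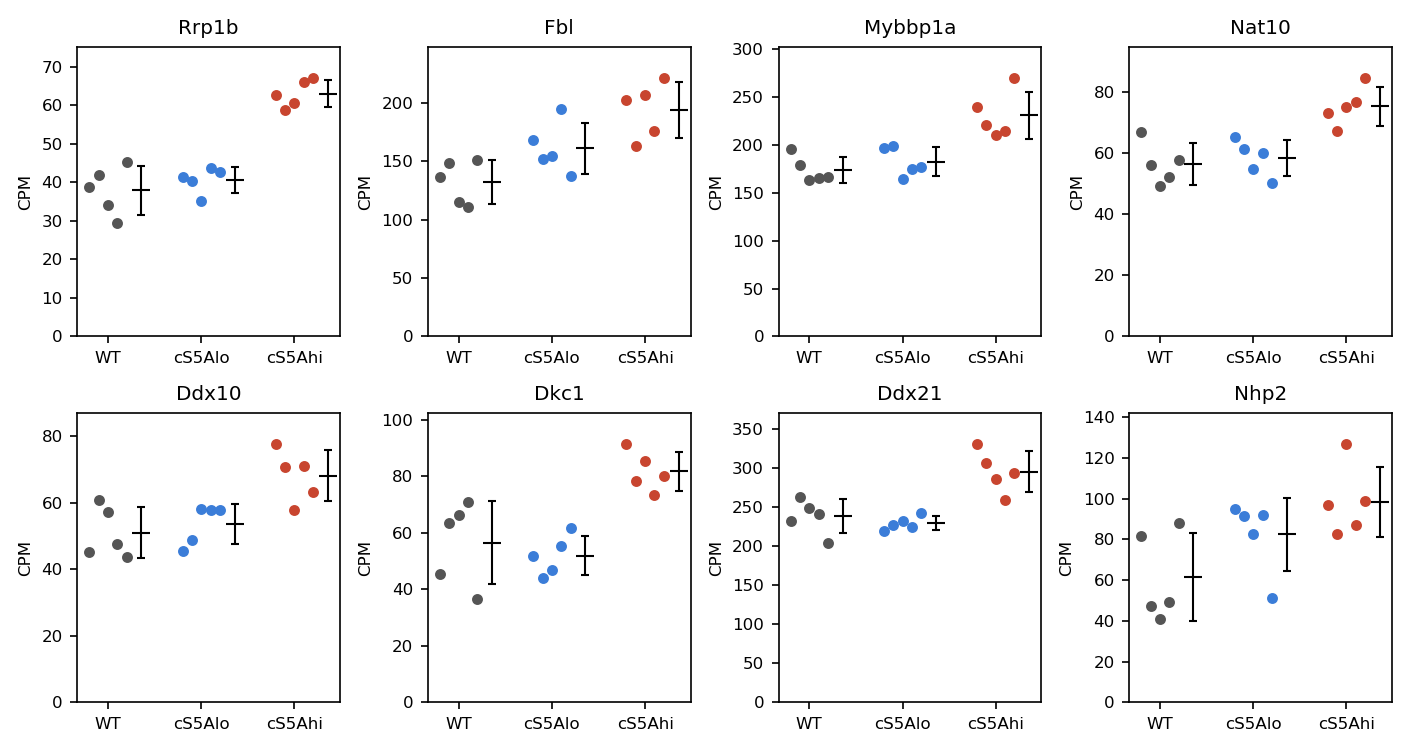
CPM per library of the 8 members other than Myc with the smallest adjusted p in cS5Ahi against WT; points are libraries, bars are the mean ± SD of 5, and axes start at 0. For Rrp1b, Mybbp1a, Nat10 and Dkc1 the cS5Ahi libraries lie above all others, and WT libraries of Nhp2 fall into a low set of 3 and a high set of 2.

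Among the nucleolar chaperones and regulators, Mybbp1a and Ddx21 rose. Mybbp1a, a nucleolar protein that binds MYB and takes part in processing of ribosomal RNA, was at 195, 179, 163, 165 and 166 CPM (WT 1 to 5), 197, 199, 165, 175 and 177 CPM (cS5Alo 1 to 5) and 240, 221, 210, 215 and 270 CPM (cS5Ahi 1 to 5). Its cS5Ahi libraries were all above the other 10. On the log2 scale it changed by 0.41 ± 0.10 against WT (adjusted p = 0.00671, edgeR) and 0.34 ± 0.10 against cS5Alo (adjusted p = 0.0340, edgeR). The call against WT was lost in 5 of 25 other settings, none of them the loss of 1 library. That against cS5Alo was lost in 13 of 25, 6 of them the loss of 1 library (cS5Alo 3, 4 or 5, or cS5Ahi 1, 2 or 5).

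Ddx21, an RNA helicase of the nucleolus, was at 233, 263, 249.4, 241 and 205 CPM (WT 1 to 5), 219, 228, 232, 225 and 243 CPM (cS5Alo 1 to 5) and 331, 307, 287, 259 and 295 CPM (cS5Ahi 1 to 5). Only cS5Ahi 4 fell within the range of WT, and none within that of cS5Alo. Its log2 fold change was 0.31 ± 0.09 against WT (adjusted p = 0.0300, edgeR) and 0.37 ± 0.09 against cS5Alo (adjusted p = 0.0170, edgeR). The call against WT was lost in 15 of 25 other settings, 7 of them the loss of 1 library (WT 1, 3, 4 or 5, or cS5Ahi 1, 2 or 5), and that against cS5Alo in 4, 1 of them without cS5Ahi 1. Nolc1, a chaperone of snoRNPs, and Lyar did not pass the test, with log2 fold changes against WT of 0.28 ± 0.11 and 0.32 ± 0.16.

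Nucleolin (Ncl) and nucleophosmin (Npm1), abundant nucleolar proteins that bind ribosomal RNA and ribosomal proteins, had fold changes as large as those of called members but did not pass the test, and their WT libraries differed widely. Ncl was at 376, 812, 709, 720 and 349 CPM (WT 1 to 5), 472, 442, 523, 520 and 868 CPM (cS5Alo 1 to 5) and 940, 767, 764, 715 and 761 CPM (cS5Ahi 1 to 5). WT 2, 3 and 4 and cS5Alo 5 were at or near the range of cS5Ahi, and WT 1 and WT 5 were below every other library. The log2 fold change against WT was 0.41 ± 0.22 (adjusted p = 0.256, edgeR). Npm1 followed the same split, at 534 and 476 CPM in WT 1 and WT 5, 798 to 971 CPM in WT 2 to 4 and 847 to 1289 CPM in cS5Ahi, with a log2 fold change of 0.43 ± 0.19 (adjusted p = 0.165, edgeR). Npm1 is known to have many processed pseudogenes, and reads shared with them may have been lost or moved in counting, so its level is uncertain.

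The low Ncl libraries were the high Nhp2 libraries within WT and within cS5Alo: WT 1 and WT 5 had Ncl at 376 and 349 CPM and Nhp2 at 81.8 and 87.9 CPM, and cS5Alo 5 had the highest Ncl of its group, 868 CPM, with the lowest Nhp2, 51.2 CPM. In cS5Ahi both were high in every library. The GC content of the transcript, which can affect how well it is amplified and sequenced, differs between these genes (42.8% for Ncl, 54.1% for Nhp2). Over the 46 members, the deviation of a library from its group mean (log2 CPM) was correlated with GC content. Pearson r was 0.50 in WT 1 and 0.69 in WT 5, and −0.54, −0.58 and −0.42 in WT 2 to 4. It was 0.70, 0.70, −0.60, −0.10 and −0.54 in cS5Alo 1 to 5, and ran from −0.59 to 0.64 in cS5Ahi. These are correlations across genes of 1 library, which share its depth and are not independent. They did not follow the split of Ncl and Nhp2 in every library: cS5Alo 3 had Ncl at 523 CPM and Nhp2 at 82.5 CPM, unlike cS5Alo 5. Between genotypes the log2 fold changes of the members correlated with GC content at r = −0.06 in cS5Ahi against WT, 0.07 in cS5Alo against WT and −0.11 in cS5Ahi against cS5Alo. With an offset for GC content in each library, a setting added after the data had been seen, 16 members were called higher in cS5Ahi against WT, including all 11, and Npm1 was then called (adjusted p = 0.0339, edgeR), with Ncl not (adjusted p = 0.101, edgeR). All tested genes called then made up 18.4%, against 14.1% without the offset.

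**Figure D4:**
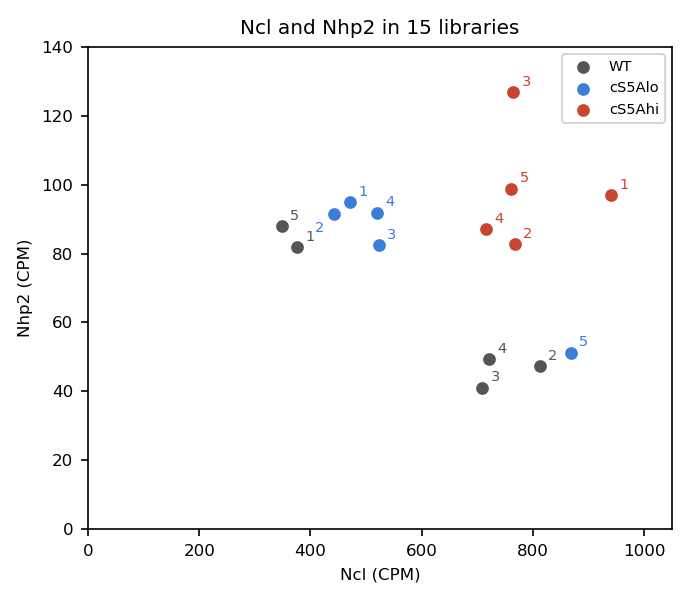
Nhp2 against Ncl (both CPM) in the 15 libraries; the number beside a point is the library's number in its genotype. WT 2 to 4 and cS5Alo 5 have high Ncl and low Nhp2, WT 1 and 5 and cS5Alo 1 to 4 the reverse, and the cS5Ahi libraries are high in both.

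**Figure D5:**
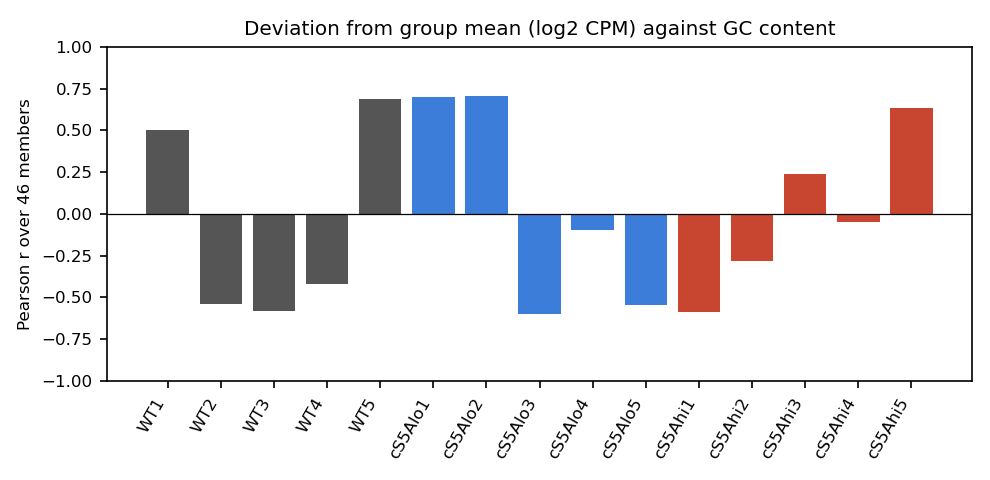
Pearson r, over the 46 members, between the deviation of a library from its genotype mean (log2 CPM) and GC content of the transcript; grey WT, blue cS5Alo, red cS5Ahi. Bars point both ways within every genotype, from −0.60 in cS5Alo 3 to 0.70 in cS5Alo 2.

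Of 14 members that process the small subunit, Ddx10 and Nat10 rose in cS5Ahi against WT, and 13 of 14 fold changes were above 1. Nat10, which acetylates cytidines of the small subunit RNA, was at 67.2, 56.1, 49.4, 52.2 and 57.9 CPM (WT 1 to 5), 65.3, 61.5, 54.9, 60.2 and 50.4 CPM (cS5Alo 1 to 5) and 73.1, 67.4, 75.2, 76.8 and 84.7 CPM (cS5Ahi 1 to 5). The cS5Ahi libraries were above the other 10, with cS5Ahi 2 (67.4 CPM) next to WT 1 (67.2 CPM), and WT and cS5Alo overlapped. Nat10 changed by 0.41 ± 0.11 on the log2 scale against WT (adjusted p = 0.0110, edgeR) and 0.37 ± 0.11 against cS5Alo (adjusted p = 0.0339, edgeR). Against WT the call was lost in 4 of 25 other settings, none of them the loss of 1 library. Against cS5Alo it was lost in 14 of 25, 8 of them the loss of 1 library (cS5Alo 2, 3, 4 or 5, or cS5Ahi 1, 3, 4 or 5).

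Ddx10, a helicase of early small subunit particles, was at 45.3, 60.9, 57.2, 47.6 and 43.6 CPM (WT 1 to 5), 45.6, 48.7, 58.0, 57.9 and 57.9 CPM (cS5Alo 1 to 5) and 77.6, 70.8, 57.9, 71.0 and 63.0 CPM (cS5Ahi 1 to 5). Only cS5Ahi 3 fell into the range of the other groups. The log2 fold change against WT was 0.42 ± 0.12 (adjusted p = 0.0232, edgeR). This call was lost in 12 of 25 other settings, 4 of them the loss of 1 library (WT 1, WT 4, cS5Ahi 1 or cS5Ahi 2). Bysl, needed late in small subunit maturation, was called only against cS5Alo: it was at 24.1, 21.6, 18.01, 18.8 and 23.9 CPM in cS5Alo 1 to 5 and 31.7, 27.8, 28.0, 26.5 and 31.2 CPM in cS5Ahi 1 to 5, a log2 fold change of 0.45 ± 0.12 (adjusted p = 0.0206, edgeR), with 0.31 ± 0.12 against WT (adjusted p = 0.0920, edgeR). The call of Bysl was lost in 7 of 25 other settings, 4 of them the loss of 1 library (cS5Alo 3, cS5Alo 4, cS5Ahi 1 or cS5Ahi 5). The cS5Ahi libraries were above all of cS5Alo, and WT reached 27.0 CPM, inside the range of cS5Ahi.

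Members of the U3 and UTP complexes, which cut the precursor early, did not pass the test. Wdr43 came nearest, with a log2 fold change of 0.31 ± 0.11 against WT (adjusted p = 0.0570, edgeR), just outside the threshold; Heatr1 (0.19 ± 0.11), Utp20 (0.14 ± 0.12), Wdr75 (0.13 ± 0.16), Rrp9 (0.21 ± 0.22), Imp3 (0.21 ± 0.17) and Imp4 (−0.02 ± 0.11) were further away. Noc4l, Rrp12, Tsr1 and Nob1, the nuclease that makes the last cut of the small subunit RNA, had log2 fold changes of 0.22 ± 0.16, 0.32 ± 0.13, 0.23 ± 0.11 and 0.19 ± 0.15. Rrp12 had the smallest spread of any member in WT (18.4 to 20.1 CPM) and a wide one in cS5Ahi, with 16.8 CPM in cS5Ahi 4 and 22.1 to 29.2 CPM in the others.

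Of 15 members that process the large subunit, Rrp1b, Pes1 and Mrto4 rose in cS5Ahi against WT, and 12 of 15 fold changes were above 1. Rrp1b, a nucleolar protein of large subunit precursors, had the largest fold change of all 46. It was at 38.9, 41.9, 34.0, 29.5 and 45.4 CPM (WT 1 to 5), 41.3, 40.3, 35.3, 43.7 and 42.7 CPM (cS5Alo 1 to 5) and 62.6, 58.9, 60.6, 66.0 and 67.1 CPM (cS5Ahi 1 to 5). The cS5Ahi libraries formed a set of their own, and WT and cS5Alo overlapped. Its log2 fold change was 0.73 ± 0.11 against WT (adjusted p = 0.000166, edgeR) and 0.63 ± 0.11 against cS5Alo (adjusted p = 0.000976, edgeR), with 0.10 ± 0.11 in cS5Alo against WT (adjusted p = 0.773, edgeR). In both cS5Ahi comparisons the call was lost only with the B cell value as a covariate, of 25 other settings each, where the log2 fold changes were 0.55 and 0.48.

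Pes1, Bop1 and Wdr12 form the PeBoW complex, which is needed to process the precursor of the large subunit RNA. Pes1 was at 71.1, 75.7, 61.7, 72.3 and 72.4 CPM in WT 1 to 5 and at 90.1, 79.3, 89, 82.6 and 87.5 CPM in cS5Ahi 1 to 5, a small difference without overlap (log2 fold change 0.28 ± 0.09, adjusted p = 0.0372, edgeR). Bop1 and Wdr12 had log2 fold changes of 0.29 ± 0.15 and 0.20 ± 0.15, each with a wider standard error than Pes1, and were not called. The call of Pes1 was lost in 17 of 25 other settings, 7 of them the loss of 1 library.

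Mrto4, an assembly factor of the ribosomal stalk, differed from the other called members in that cS5Alo was as high as cS5Ahi. It was at 53.4, 63.6, 59.5, 58.8 and 56.4 CPM (WT 1 to 5), 72.6, 68.9, 75.9, 72.4 and 65.5 CPM (cS5Alo 1 to 5) and 78.1, 60.8, 66.6, 73.0 and 77.3 CPM (cS5Ahi 1 to 5). All cS5Alo libraries exceeded all WT libraries, and cS5Ahi 2 did not. The log2 fold change was 0.29 ± 0.09 in cS5Ahi against WT (adjusted p = 0.0482, edgeR), the called member nearest to the threshold, and 0.28 ± 0.09 in cS5Alo against WT (adjusted p = 0.292, edgeR, unadjusted p = 0.00708). In cS5Ahi against cS5Alo it was 0.00 ± 0.09. The call was lost in 20 of 25 other settings, 8 of them the loss of 1 library.

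Gnl3 (nucleostemin) and Nop2, a methyltransferase of the large subunit RNA, lay just outside the threshold in cS5Ahi against WT, with log2 fold changes of 0.37 ± 0.13 (adjusted p = 0.0590, edgeR) and 0.37 ± 0.14 (adjusted p = 0.0825, edgeR). Gnl3 gave 0.28 ± 0.13 in cS5Alo against WT, whereas Nop2 gave −0.02 ± 0.14. Ebna1bp2, Ppan, Nop16, Ddx18, Rrs1, Noc3l, Nip7 and Grwd1 had log2 fold changes between −0.15 and 0.24 in cS5Ahi against WT and were not called. Nip7 was at 38.7 to 44.3 CPM in cS5Ahi and at 45.3 to 53.6 CPM in cS5Alo, so that it was lower in cS5Ahi without overlap, with a log2 fold change of −0.23 ± 0.11 (adjusted p = 0.234, edgeR; adjusted p = 0.0342 with limma).

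Within genotypes the members varied most in WT. The median coefficient of variation over the 46 genes was 16.2% in WT, 11.3% in cS5Alo and 11.2% in cS5Ahi, against 17.5, 13.4 and 12.4% over all genes at a mean of 10 CPM or more. Rrs1, a factor of the 5S particle of the large subunit, varied most in WT and in cS5Ahi (43.02 and 22.0%). The highest of 15 values of a member was in a cS5Ahi library for 32 members, 18 of them in cS5Ahi 1, and the lowest was in a WT library for 36.

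Other genes of the same pathways were listed apart from the 46 members and are given here for cS5Ahi against WT, where 6.88% of tested genes were called higher. Of 41 further small subunit processing genes 5 (12.2%) rose and none fell, with a median log2 fold change of 0.15; Nop14, an early assembly factor, went from 57.9 ± 5.91 to 81.2 ± 7.85 CPM (SD, n = 5; log2 fold change 0.49 ± 0.10, adjusted p = 0.00155, edgeR), and Ltv1 and Rrp7a rose by 0.41 ± 0.10 and 0.64 ± 0.15. Of 46 further large subunit processing genes 5 (10.9%) rose and none fell (median 0.16). The count was 2 without WT 1 or cS5Ahi 1 and 3 without WT 3, cS5Ahi 2, cS5Ahi 3 or cS5Ahi 5. Nsa2 went from 366 ± 38.2 to 515 ± 53.3 CPM (log2 fold change 0.49 ± 0.10, adjusted p = 0.00199, edgeR), and Pelp1 and Nifk rose by 0.43 ± 0.11 and 0.43 ± 0.12. Of 15 genes of the RNA exosome and trimming 1 rose (6.67%), Xrn2, a 5′ to 3′ exonuclease (0.39 ± 0.11). No gene of the list was called without WT 3, cS5Ahi 1 or cS5Ahi 5. With the salivary gland value as a covariate no gene of these 3 lists was called. No gene was called among 11 further genes of RNA polymerase I, where Ubtf, its upstream binding factor, had means of 152 ± 6.78 CPM for cS5Ahi and 152 ± 17.0 CPM for WT, nor among 21 of RNA polymerase III or 11 of snoRNP assembly; an unadjusted p under 0.05 was found for 2, 6 and 0 of them. In these 3 lists DESeq2 called 1 gene of RNA polymerase III, as lower, and limma 1 gene of RNA polymerase I, as higher. In the same lists edgeR called 1 gene of RNA polymerase I without WT 1, WT 4 or WT 5, and of RNA polymerase III 1 higher without WT 1, 2 higher without WT 5 and 1 lower without WT 3. With the B cell value as a covariate none of these lists held a gene called higher.

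Of 29 MYC targets outside the ribosome 7 (24.1%, against 6.88% of tested genes) rose in cS5Ahi against WT, none fell, and the median log2 fold change was 0.32. The count was 3 without cS5Ahi 1, 4 without WT 3 and 2 with the salivary gland value as a covariate. Tfrc, the transferrin receptor, went from 42.7 ± 6.92 to 70.3 ± 9.86 CPM (log2 fold change 0.72 ± 0.13, adjusted p = 0.000627, edgeR), Gart, an enzyme of purine synthesis, from 46.3 ± 8.91 to 93.8 ± 43.5 CPM (1.02 ± 0.21, adjusted p = 0.00246, edgeR), and Hspe1, a mitochondrial chaperonin, from 266 ± 27.5 to 432 ± 88.5 CPM (0.70 ± 0.16, adjusted p = 0.00471, edgeR). Of the 17 tested genes of the MYC network 1 was called lower and none higher, against 7.25% and 6.88% of tested genes. The fold change was above 1 for 8 of the 17, and the median log2 fold change was −0.04. The gene called lower was Mxd1, which competes with MYC for MAX and represses its targets. Its mean was 17.8 ± 3.70 CPM for cS5Ahi, 22.8 ± 2.45 CPM for cS5Alo and 38.2 ± 14.3 CPM for WT. The log2 fold change of Mxd1 was −1.10 ± 0.21 in cS5Ahi against WT (adjusted p = 0.00100, edgeR). Of 20 proliferation genes 3 (15%, against 6.88% of tested genes) rose, the replication helicase subunits Mcm4, Mcm2 and Mcm6 (0.39 ± 0.09, 0.50 ± 0.12 and 0.55 ± 0.14). The fold change was above 1 for 19 of the 20, and the median log2 fold change was 0.42. The mean log2 CPM of the 20 genes was 3.92 to 4.83 in WT and 4.38 to 4.81 in cS5Ahi. Of these genes 6 were called without WT 5, 1 without WT 3 and WT 4, and none with the salivary gland value as a covariate. Of 9 tested genes of nucleolar stress and p53 1 rose (11.1%, against 6.88% of tested genes), and 5 of the 9 fold changes were above 1. The gene that rose was Zmat3, from 62.0 ± 15.2 to 130 ± 6.71 CPM (1.07 ± 0.16, adjusted p = 0.000121, edgeR). In this list DESeq2 also called 1 gene lower, as did edgeR without WT 4 or WT 5. With the B cell value as a covariate none of these 4 lists held a called gene, Mxd1 included. The call of Mxd1 was also lost with the salivary gland value.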

How the data were processed

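Each of the 15 deposited files holds whole-number counts of reads per gene, which the authors did not normalise, for 1 library. Per the submitters' processing notes, cutadapt, TopHat 1.4.1 and HTSeq 0.6.1p1 were used with build mm9; no source used here says whether counting used strand, so reads of a gene and of an overlapping antisense gene cannot be told apart. The 5 summary entries were used in no library size or test; reads outside genes made up 23.0 to 40.8% and ambiguous reads 0.533 to 0.687% of a file. Symbols were matched to RefSeq (GRCm38.p6) for 20657 entries, and GC content was taken from GENCODE transcripts of protein-coding genes (96.5% of tested genes, all 46 members). No 2 libraries of a group agreed within sampling noise (chi-square per degree of freedom 9.98 to 112 over 30 pairs).

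Counts were filtered by group (filterByExpr, minimum count 10, minimum total 15), scaled with TMM factors and fitted over all 15 libraries with the robust quasi-likelihood test of edgeR 4.0.16 under R 4.3.3; p-values were adjusted by Benjamini-Hochberg over 11979 genes and called under 0.05. The common biological coefficient of variation was 0.234. For log2 CPM the prior count was 2. Exact permutation tests of 5 against 5 libraries can reach p = 0.00794 at the least. On simulated counts with known changes, 67 genes were changed 1.5-fold and 67 others 2-fold in each comparison. Of these, 50.7% and 68.7% were recovered in cS5Ahi against WT (11809 genes tested), and 31.3% and 74.6% in cS5Alo against WT (11813 genes tested). In cS5Ahi against cS5Alo 34.3% and 64.2% were recovered (11832 genes tested). Another 66 genes were changed 4-fold, and all remaining genes were simulated without a change. With this, 148 genes were called in cS5Ahi against WT, against 1692 in the data, so these shares do not give the power for the members. Changes below 1.5-fold were not simulated, and only 2 members reached 1.5-fold in cS5Ahi against WT. DESeq2 1.42.0 and limma 3.58.1 (voom with quality weights) served as alternatives, with other scalings, filters, covariates, a replicate block and left-out libraries.

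The members, gene lists, tests and most alternatives were chosen with earlier results of these data known. Values are given per library for Myc, Max and the members with the smallest adjusted p in each comparison; values per library of Pes1, Mrto4, Ncl and Npm1 were added after the data had been seen. Of each pathway list, up to 3 called genes with the smallest adjusted p were named. Coordinates are given only for promoters. Protein sequences were not used here.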

Additional observations from a re-analysis of the deposited data

Results flagged for a closer look

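Of 141 sets of 5 libraries (46 members and their mean in 3 genotypes), 9 held a library whose gap to its neighbour was large for the range of the set, where chance alone gives about 1 in 20. The part of any cause was not tested. In cS5Alo 5, 4 members stood apart: Ncl at 868 CPM (442 to 523 CPM in the other 4 libraries), Rrs1 at 37.6 CPM (20.7 to 23.8 CPM) and Gar1 at 21.1 CPM (17.8 to 18.6 CPM) were high, and Nhp2 at 51.2 CPM (82.5 to 95.02 CPM) was low. Nop16 was high in WT 4, at 32.8 CPM against 16.1 to 19.7 CPM. Tsr1 was high in cS5Alo 3, at 40.8 CPM against 34.6 to 36.3 CPM. In cS5Ahi, Ncl was high in cS5Ahi 1 (940 CPM against 715 to 767 CPM), Imp4 was high in cS5Ahi 3 (67.3 CPM against 59.2 to 61.0 CPM) and Nop56 was low in cS5Ahi 2 (145 CPM against 172 to 182 CPM).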

How the results depend on the processing

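The count of members called in cS5Ahi against WT, 11, was 5 with library size alone, 6 with only the 2 groups in the fit, 5 with the replicate block, 2 without WT 3 and WT 4, 0 with the B cell value and 1 with the salivary gland value as a covariate; among settings added after seeing the data it was 3 without WT 3, WT 4 and cS5Ahi 4, 6 with only libraries of little Y-linked RNA (2 WT, 5 cS5Alo and 2 cS5Ahi), and 16 with the GC offset. Leaving out 1 library gave 5 to 13. The count in cS5Ahi against cS5Alo, 7, was 17 with limma (16 higher, 1 lower) and 3 with the replicate block. In this comparison limma called 21.3% of all tested genes, against 8.64% with edgeR. The count was 0 with the B cell, 4 with the salivary gland and 3 with the Y-linked value as a covariate. It was 3 with only libraries of little Y-linked RNA and 11 with the GC offset. Leaving out 1 library gave 2 to 7. The count in cS5Alo against WT was 0 in all 26 settings. Apart from the 1 lower call with limma, every member called was higher. The mean over the members differed by 0.18 between cS5Ahi and WT with library size alone, in place of 0.27. With that scaling the differences of Myc were 0.49 (cS5Ahi against WT) and 0.42 (cS5Ahi against cS5Alo), both with adjusted p = 0.0714 in exact permutation tests. The E-box share was 5.0% with only the bases before the start. No called value changed sign. For each of these differences the cause was not tested.

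Samples share only a replicate number: the correlations of deviations between samples of the same number ran from −0.318 to 0.198, so the numbers were not taken to pair samples, and the block left 5 of 11 and 3 of 7 calls. No member rested on fewer than 110 reads in a library, which is the precision depth gives here.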
